A study of Mus musculus with 2 samples.

Results

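The regions described here are the stretches of autosomal DNA where 5-hydroxymethylcytosine (5hmC) was called higher in Tet2-/- than in Tet2+/+ mouse mast cells. They are all autosomal peaks that the authors' peak caller reported when the Tet2-/- library was called with the Tet2+/+ library as its control. There were 465 of them, out of 38228 regions in the 4 deposited peak lists, and 4 further regions on X and Y were left out. For scale, 2704 autosomal regions were called higher in Tet2+/+. Since the contrast between the 2 libraries chose these regions, their excess in Tet2-/- is described and carries no test.

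5hmC is made from 5-methylcytosine by the TET dioxygenases, of which TET2 is the member most studied in blood cells. It is both a step in the removal of DNA methylation and a mark often found at enhancers and in the bodies of active genes. Other TET enzymes can make it where TET2 is missing. In mast cells, which carry granules and the receptor for IgE, loss of TET2 is known mainly for its effect on differentiation and proliferation.

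The cells were bone marrow-derived mast cells (BMMCs), grown in interleukin-3 from the marrow of C57BL/6 mice of 6 to 12 weeks, either Tet2+/+ or Tet2-/-, with no treatment. Per the labels, mast cells were sorted as Kit+ FcεRIα+ after 4 weeks, because Tet2-/- cultures matured less fully. Each genotype had 2 animals and 1 library, and whether DNA of the animals was pooled is not given in the sources used here, nor is the deleted part of Tet2. 5hmC was tagged with glucose and biotin in 4 µg of sonicated DNA and pulled down. The 2 cultures may differ in makeup as well as in TET2, which cannot be told apart here, and the deleted gene and mast cell markers were not analysed here.

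With 1 library per genotype there is no spread between replicates, so no p-value is given and every interval covers counting error only. Fragments per summit were recovered from the deposited fold and p. Depth differed by 1.18 times, as read from a genome-wide background of 1.72 fragments in Tet2-/- and 1.46 in Tet2+/+, and Tet2-/- fragments were multiplied by 0.848 for comparison. Regions are named by mm9 coordinates alone, since no gene annotation or sequence of that build was used here.

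The regions nearly all coincided with 5hmC peaks of the Tet2-/- library itself. Of the 465, 463 overlapped a peak that the Tet2-/- library had when called alone (an own peak), and 2 did not. Seen from the other side, 463 of 16545 Tet2-/- own peaks held such a region, which is 2.8% of them. The summit lay within 10 bp of the own summit in 429 of the 463 and was covered by the same number of fragments in 462. Both lists were called from the same Tet2-/- fragments, so this match and the overlap itself are largely built in. In 461 the region lay inside the own peak, of which it took a median of 59.1% of the width. No own peak held more than 1 of the regions. Among Tet2+/+ own peaks, 186 of 17882 (1.04%) overlapped a region higher in Tet2-/-, whereas 2492 (13.9%) overlapped one higher in Tet2+/+.

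Coverage in Tet2-/- ran from 13 to 112 fragments at the summit, with a median of 30 and quartiles of 23 and 41. The median over all Tet2-/- own peaks was 18. The peak caller expected a median of 6 fragments from Tet2+/+, from 1.46 to 39.6, and the deposited fold had a median of 3.93 (2.06 to 10.0). Own peaks under the regions had a median width of 438 bp, against 318 bp over all Tet2-/- own peaks. This is no trait separate from coverage, since both come from the same fragments, and peaks of like coverage were not compared. The −log10 q was at least 2 in 414 regions (89.0%), at least 5 in 191 (41.1%) and at least 10 in 31 (6.67%). It was under 2 in the other 51, so part of the list rests on weak calls.

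The regions split into those with and those without an own peak of Tet2+/+ cells. In 186 (40%, 95% exact interval 35.5 to 44.6) both libraries had an own peak, and these are called shared regions below. In 277 (59.6%, 55.0 to 64.1) the Tet2-/- library alone had one, and these are called knockout-only regions. The remaining 2 (0.430%) overlapped no own peak. No region overlapped a Tet2+/+ own peak without a Tet2-/- one (0 of 465, exact interval up to 0.790%). The balance depended on the limits. At −log10 q of at least 5 the 2 classes were near equal, with 94 knockout-only (49.2%) and 97 shared (50.8%). With a reciprocal overlap of 50%, 57.2% were knockout-only, 14.2% shared and 18.1% in neither, and the rest met the limit for Tet2+/+ alone. Shared regions had a median width of 237 bp and their Tet2-/- own peaks one of 516 bp. Width by itself could thus keep a region from this limit.

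Shared regions were strong peaks in Tet2-/- and near-typical ones in Tet2+/+. Their summits had 23 to 112 Tet2-/- fragments (median 43, quartiles 35 and 56.8), and the Tet2+/+ own peaks below them had 9 to 70 (median 19, quartiles 15 and 26). The medians over all own peaks were 18 in Tet2-/- and 17 in Tet2+/+. After scaling for depth, Tet2-/- coverage was a median of 1.83 times that of Tet2+/+. The quartiles were 1.59 and 2.14 and the extremes 1.18 and 4.15. Coverage was thus higher in Tet2-/- at each of the 186 regions, by at least 2 times in 65, at least 3 times in 2, and under 1.5 times in 27. The interval of the single ratio lay above 1 in 113 regions and included 1 in 73.

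After scaling for depth, the general level ran the other way. Over all 10912 Tet2-/- own peaks with a Tet2+/+ partner, scaled coverage in Tet2-/- was a median of 0.873 times that in Tet2+/+ (quartiles 0.698 and 1.08). The depth factor is itself 0.848, so fragments before scaling were nearly equal. The direction thus rests on the background value read from each library. A ratio of at least 2 was found in 93 of these pairs (0.852%), and 66 of the 93 were under a region called higher. The other 27 had fewer Tet2-/- fragments, a median of 29 against 42. At the 1002 regions higher in Tet2+/+ with an own peak in both libraries, the ratio in the opposite sense had a median of 1.89, close in size to the 1.83 above. No test sets these medians against each other, since both sets were chosen on this contrast.

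**Figure D1:**
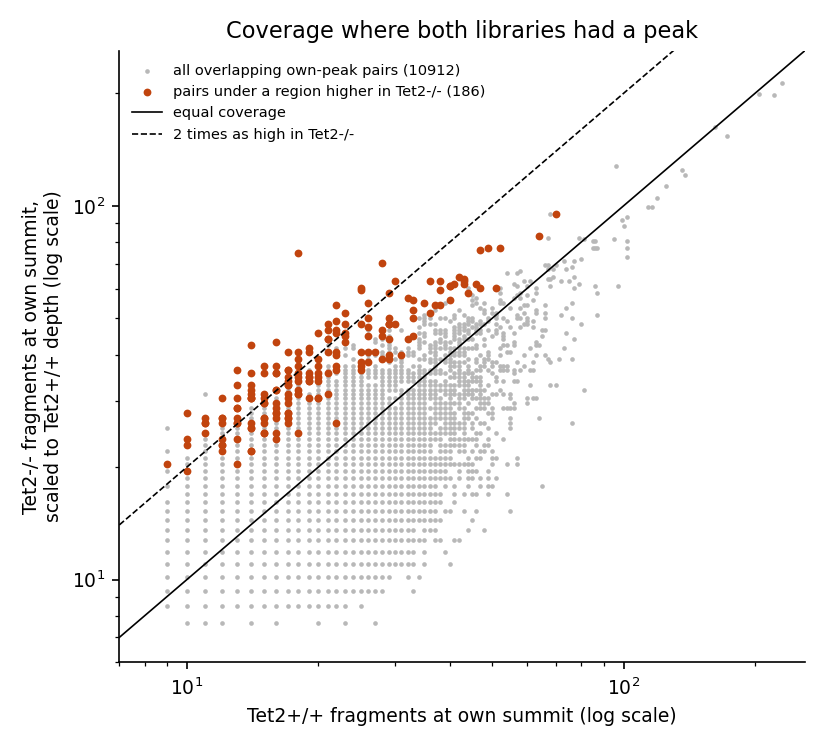
Fragments at the own summit in Tet2+/+ (horizontal, log scale) and in Tet2-/- scaled to Tet2+/+ depth (vertical, log scale) for all 10912 overlapping own-peak pairs (grey) and for the 186 shared regions called higher in Tet2-/- (orange). The shared regions lie above the line of equal coverage, with a median ratio of 1.83, while the median over all pairs is 0.873.

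The deposited fold was larger than the coverage ratio at shared regions. It exceeded that ratio in all 186, by a median of 1.84 times (1.03 to 2.74). The ratio divides by Tet2+/+ fragments at the Tet2+/+ own summit, and the fold by the pileup the caller expected from the Tet2+/+ library. This expectation is the largest of several local estimates. It was a whole number of Tet2+/+ fragments at 300 of the 465 regions (64.5%), came in the steps of a wider window at 142 and 13, and equalled the genome background at 10. A wider-window estimate that fell on a whole number is counted among the 300, so these are at most the regions where fragments at the site set the expectation. The 2 measures are therefore not alike, and which is nearer the true difference was not tested.

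The strongest shared region by −log10 q was chr12:105997693-105998059. It had 88 fragments in Tet2-/-, or 74.6 after scaling, and 18 in Tet2+/+, a ratio of 4.15 (2.48 to 7.32), the highest of the 186. The Tet2+/+ peak there was only 200 bp wide, against 448 bp in Tet2-/-. At chr13:85399023-85399349, 83 Tet2-/- fragments stood over 28 in Tet2+/+, a ratio of 2.51 (1.62 to 4.01). Ratios between 2.2 and 2.5 followed at 4 more of the 8 leading shared regions. There were 64 over 22 fragments at chr9:61240154-61240444, 71 over 25 at chr1:168389050-168389579, 61 over 23 at chr15:63504010-63504296 and 55 over 21 at chr14:102055761-102055968.

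High significance did not always go with a large ratio. At chr13:63978643-63978880 there were 90 Tet2-/- and 47 Tet2+/+ fragments, a ratio of 1.62 (1.13 to 2.36). The most heavily covered region of all, chr12:112482853-112483096, had 112 and 70, a ratio of 1.36 (0.998 to 1.86), although its −log10 q was 14.03. The interval of this ratio, which compares the 2 own summits, includes 1, whereas the direct call set the 112 fragments against 30 expected from Tet2+/+. The 2 measures thus differ at this region, and which is nearer the true difference was not tested.

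Some further regions at the 2 ends of the ratio, chosen after their values were seen, show the spread. High ratios were found at chr11:60228522-60228954, with 50 Tet2-/- over 14 Tet2+/+ fragments (3.03, 1.65 to 5.93), and at chr14:79581672-79581929, with 43 over 13 (2.80, 1.48 to 5.69). The lowest was at chr17:75219213-75219449, with 71 over 51 (1.18, 0.812 to 1.73), followed by chr2:154348212-154348411, with 31 over 22 (1.19, 0.670 to 2.17). Both of the low ratios have intervals that include 1, though their deposited folds were 2.66 and 2.73.

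Within shared regions the own summits of the 2 libraries mostly lay close together, and the Tet2-/- peak was mostly the broader one. The class requires both own peaks to overlap the same region, so nearness is partly built in. The summit gap over all pairs was not analysed here. Own summits were a median of 50 bp apart, within 100 bp in 138 of the 186 and over 200 bp apart in 13, with the largest gap, 375 bp, at chr1:168389050-168389579. The summit of the region lay inside the Tet2+/+ own peak in 175. The Tet2-/- own peak was wider than the Tet2+/+ one in 152 of 186, against 40.8% of all pairs, and median widths were 516 bp and 413 bp. Width is called from the same fragments as coverage, so it is no separate evidence of a difference. Regions with summits within 100 bp had a median ratio of 1.82, and the 13 with distant summits one of 2.01.

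The own lists carry an expectation from up to 10 kb around each peak, and its scaled ratio, Tet2-/- over Tet2+/+, was a median of 1.15 at shared regions (quartiles 1.04 and 1.29). Over all pairs the same ratio was 0.889 (0.786 to 1.00). The fragments of the peak itself are counted in that window, and the regions were chosen for more of them in Tet2-/-, so these ratios do not show an excess in the surroundings.

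Knockout-only regions were weaker in Tet2-/- than shared regions. Their summits had 13 to 59 Tet2-/- fragments (median 25, quartiles 20 and 30), and the caller expected 1.46 to 11 from Tet2+/+ (median 4). The deposited fold had a median of 4.46 (2.47 to 10.0), against 3.40 in shared regions. In 94 of the 277 (33.9%) the −log10 q was at least 5, against 97 of the 186 shared regions (52.2%). A Tet2+/+ peak raises the Tet2-/- coverage needed for a call, so the call itself shapes these contrasts. Of Tet2-/- own peaks of 15 to 19 fragments, 0 of 3276 with a Tet2+/+ partner were called and 57 of 1982 without one. Coverage of Tet2+/+ below the threshold of its own list was not analysed here, so no coverage ratio can be given for knockout-only regions. The lowest own peak in either library had 8 fragments, so knockout-only refers to peak calls and not to absent Tet2+/+ signal. At 160 of the 277 (57.8%) the expectation was a whole number of Tet2+/+ fragments, which again can include wider-window estimates.

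The knockout-only region of highest −log10 q was chr1:196915262-196915624, with 46 Tet2-/- fragments (95% Poisson interval 33.7 to 61.4) where 3 were expected from Tet2+/+. Its deposited fold of 10.0 was the highest of the 465 regions, and the nearest Tet2+/+ own peak was 51248 bp from its summit. At chr1:35926143-35926567 there were 52 fragments where 6 were expected, 7249 bp from a Tet2+/+ peak. The isolated region chr3:124179470-124179717 had 30 fragments where 2 were expected, a fold of 8.81, and no Tet2+/+ peak within 804074 bp.

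The other leading knockout-only regions had 36 to 59 fragments over expectations of 3.4 to 10. The highest count was at chr2:104421519-104421913, with 59 fragments where 10 were expected, and a Tet2+/+ own peak lay only 432 bp from the summit. Next to a Tet2+/+ peak was also chr15:83050729-83050996, with 45 fragments where 6.2 were expected, 1233 bp away. Farther off lay chr9:95286071-95286432 (50 fragments, 7 expected, 31216 bp), chr16:32670577-32670859 (36, 3.4, 17880 bp) and chr10:41323574-41323807 (39, 4.2, 7921 bp). The absence of a Tet2+/+ peak at the summit thus covers both neighbours of Tet2+/+ peaks and sites far from any.

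Over all 277 knockout-only regions, the nearest Tet2+/+ own peak was a median of 9254 bp from the summit (quartiles 3322 and 33019). It was within 1 kb in 27 (9.75%), within 10 kb in 142 (51.3%, 45.2 to 57.3) and within 100 kb in 253 (91.3%). For all 5633 Tet2-/- own peaks without a Tet2+/+ partner the median was 13667 bp, and the shares were 7.90%, 42.3% (41.0 to 43.6) and 90.6%. The knockout-only regions were thus nearer in the middle of the range and alike at 100 kb. Those with an own peak in the larger set are part of it, and no test was made.

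In 10 knockout-only regions (3.61%, 1.74 to 6.54) no Tet2+/+ peak lay within 500 kb, whereas 98.4% of all Tet2-/- own peaks without a partner had one in that span. The share beyond 500 kb was thus larger among knockout-only regions, with no test made. The farthest was chr17:69762203-69762663, 1326258 bp from a Tet2+/+ own peak, with 33 fragments where 3 were expected and an own peak of 548 bp. Second was the chromosome 3 region outside both own lists, described next, and then came chr13:83259495-83259711 (27 fragments, 6 expected, 1180109 bp), chr6:46162990-46163234 (35, 4.2, 988875 bp) and chr11:47573646-47573883 (13, 3, 915210 bp). The last of these has the lowest number of fragments found in the list, which some other regions share.

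**Figure D2:**
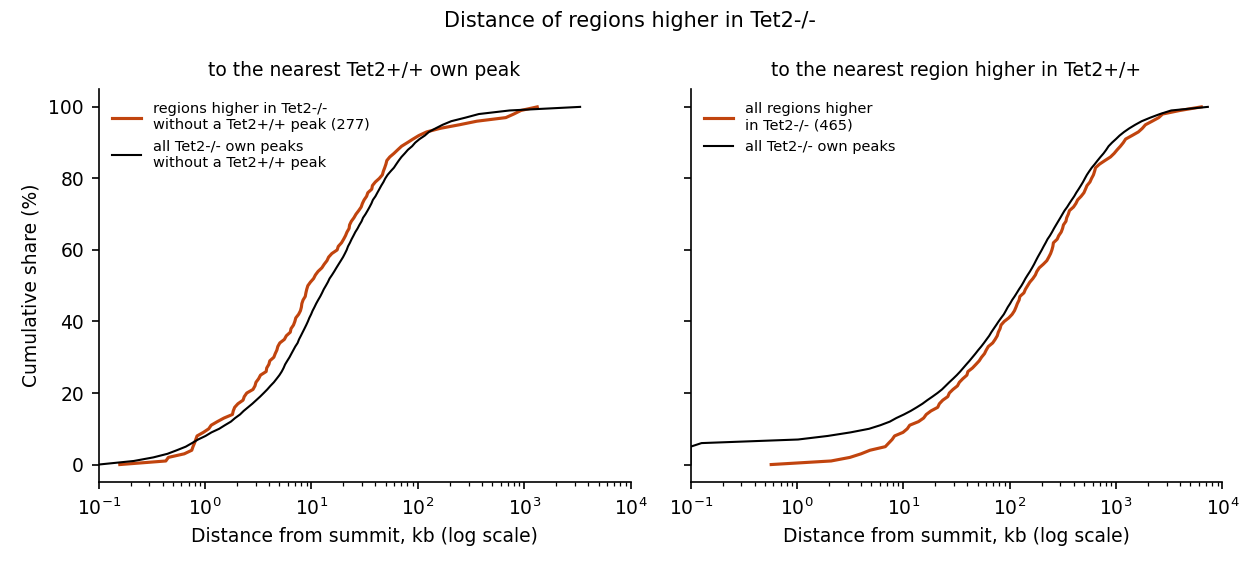
Cumulative share of regions (vertical, %) by distance from the summit (horizontal, kb, log scale) to the nearest Tet2+/+ own peak, for the 277 knockout-only regions, and to the nearest region higher in Tet2+/+, for all 465 regions (orange). Black lines give the Tet2-/- own peaks without a Tet2+/+ partner and all Tet2-/- own peaks. For Tet2+/+ own peaks the orange line is to the left around the median (9254 bp against 13667 bp) and crosses the black one at both ends, and for regions higher in Tet2+/+ it is below the black line at short distances.

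The 2 regions outside both own lists were close to the median of 30 fragments. At chr1:40491356-40491564 there were 27 fragments where 5.3 were expected, 3139 bp from a Tet2-/- own peak and 5855 bp from a Tet2+/+ one. The region chr3:25420592-25420792 had 28 where 6.36 were expected, with the nearest own peaks 678218 bp (Tet2-/-) and 1228613 bp (Tet2+/+) away. Their −log10 q values were 3.20 and 2.56.

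At the calling threshold the regions were sparse in fragments. The 3 of lowest −log10 p, all knockout-only, were chr18:65434387-65434627 (16 fragments, 4 expected, −log10 p 4.12), chr11:47573646-47573883 (13, 3, 4.15) and chr2:60009950-60010160 (14, 3, 4.15). Their −log10 q values were 0.281 for the first and 0.289 for the others. Regions just outside the threshold are not in this list, and their direct-call values were not analysed here.

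The 5 widest regions ranged from 19 to 71 Tet2-/- fragments. The widest, chr9:8831890-8832445, spanned 556 bp with 19 fragments where 2.2 were expected. The shared regions chr1:168389050-168389579 (530 bp) and chr13:63387906-63388378 (473 bp, 62 Tet2-/- over 33 Tet2+/+ fragments, ratio 1.59) came next. They were followed by the knockout-only regions chr9:64641890-64642360 (471 bp, 32 fragments) and chr2:60677687-60678156 (470 bp, 41 fragments). The median width of the 465 was 239 bp.

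The direct call weighs Tet2-/- coverage against Tet2+/+ signal at the same place, so the share of own peaks called is bound to vary with both, and it is given here as a description. Of 5633 own peaks without a Tet2+/+ partner 276 were called (4.9%), and of 10912 with a partner 187 (1.71%). Among peaks of 8 to 14 fragments, 10 of 2603 without a partner were called (0.384%), and none of 2069 with one, which allows up to 0.145%. At 20 to 24 fragments the shares were 9.45% and 0.130%. At 30 to 39 fragments 67 of 104 without a partner (64.4%, 54.4 to 73.6) and 57 of 1225 with one (4.65%, 3.54 to 5.99) were called. Of the best covered peaks with a partner, at 60 fragments or more, 36 of 148 were called (24.3%, 17.7 to 32.1), and of the 4 without a partner 0 were called.

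**Figure D3:**
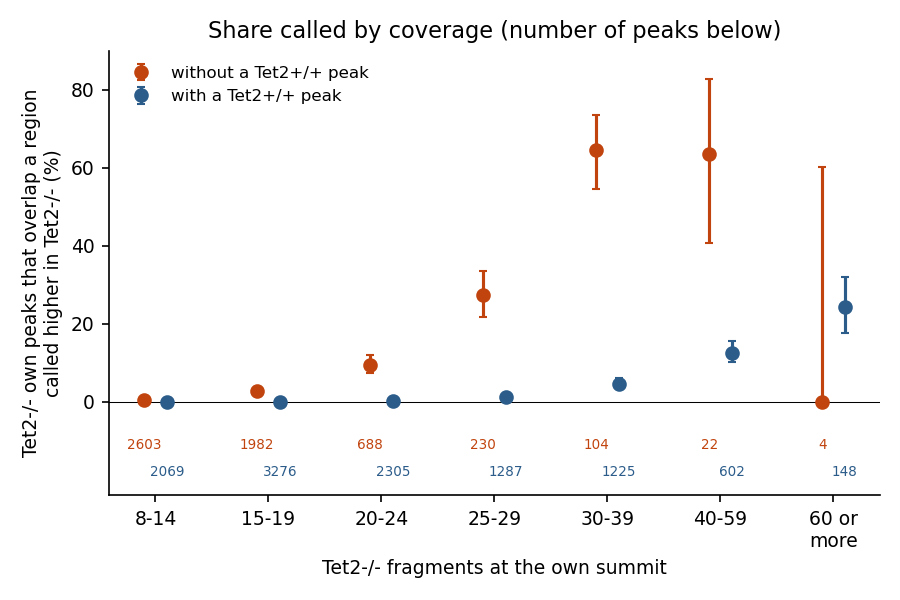
Share of Tet2-/- own peaks that overlap a region called higher in Tet2-/- (vertical, %) by fragments at the own summit (horizontal), without (orange) and with (blue) an overlapping Tet2+/+ own peak. Bars are 95% exact intervals and the numbers below give the peaks in each class. At 30 to 39 fragments the shares were 64.4% and 4.65%. Both variables enter the call itself.

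Of Tet2-/- peaks without a Tet2+/+ partner and with 30 or more fragments, 81 were called and 49 were not, among them all 4 with 60 or more. The local expectation in the Tet2-/- library was a median of 5.16 at these 49 and 3.52 at the 81 that were called. A Tet2+/+ own peak lay a median of 2288 bp from the 49. The lack of a partner in the Tet2+/+ list was therefore not the same as a call in the direct comparison, even at strong peaks.

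The nearest region higher in Tet2+/+ was a median of 147214 bp from a region higher in Tet2-/- (quartiles 39557 and 468716), against 128742 bp over all Tet2-/- own peaks. It was within 10 kb in 42 of the 465 (9.03%, 6.59 to 12.0). The share was 13.9% (13.4 to 14.5) over all Tet2-/- own peaks, many of which overlap a region higher in Tet2+/+ themselves, which the regions here do not. By class it was 13 of the 186 shared regions (6.99%, 3.77 to 11.7) and 28 of the 277 knockout-only regions (10.1%, 6.82 to 14.3). The matching shares were 16.3% of Tet2-/- own peaks with a Tet2+/+ partner and 9.44% of those without one. Within 100 kb the shares were 41.3% of the 465 and 44.9% of all Tet2-/- own peaks. The knockout-only share was thus near that of all own peaks without a partner.

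At 3 of the 465 regions (0.645%) a region called higher in Tet2+/+ lay within 1 kb of the summit. The share was 6.99% over all Tet2-/- own peaks and 1.28% over those without a Tet2+/+ partner, so such places were not more frequent here. At chr2:104421519-104421913, the knockout-only region with 59 Tet2-/- fragments, a region higher in Tet2+/+ lay 572 bp from the summit at chr2:104420942-104421142, with 35 Tet2+/+ fragments and no Tet2-/- own peak. At chr13:45713283-45713527, with 46 Tet2-/- fragments where 9.2 were expected, the counterpart lay 577 bp away at chr13:45713978-45714233, with 54 Tet2+/+ fragments over a Tet2-/- own peak. The shared region chr1:168389050-168389579 had its counterpart, with 35 Tet2+/+ fragments, 885 bp away. At these 3 sites the summits of the 2 opposite calls were 630 to 1054 bp apart. The next 2, chr18:42477947-42478248 (38 Tet2-/- fragments) and chr8:47936135-47936365 (30), had counterparts of 23 and 21 Tet2+/+ fragments at 1122 and 1599 bp.

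The nearest other region higher in Tet2-/- was a median of 1210640 bp away. It was within 1 Mb in 214 of the 465, within 100 kb in 54 (11.6%) and within 10 kb in 14, which formed 7 pairs. The closest pair, chr11:106855603-106855959 and chr11:106856144-106856353, had 30 and 20 fragments with summits 534 bp apart, and both were knockout-only. Within 50 kb on either side lay a median of 3 Tet2-/- own peaks, the one under the region included, and 2 Tet2+/+ own peaks. Over all Tet2-/- own peaks, counted the same way, both medians were 3.

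Of 446 windows of 100 kb that held such a region, 430 held 1, 14 held 2, 1 held 3 and 1 held 4. The 4 were on chromosome 14 between 70.0 and 70.1 Mb, with 30, 28, 37 and 35 Tet2-/- fragments where 5, 9, 8 and 9 were expected. Their −log10 q values were 5.28, 0.641, 4.76 and 2.88, so the second, chr14:70031527-70031744, was a weak call. That window had 9 Tet2-/- and 6 Tet2+/+ own peaks and no region higher in Tet2+/+. One of the 4, chr14:70056762-70057062, was a shared region, with 18 Tet2+/+ fragments. The strongest Tet2-/- peak of the window, chr14:70028377-70028800, had 44 fragments over 30 in Tet2+/+ and was not called.

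The 3 on chromosome 1 lay between 108.5 and 108.6 Mb, with 26, 30 and 37 fragments where 3.8, 6 and 6 were expected. This window had 7 own peaks in each library, and a region higher in Tet2+/+ with 15 fragments (chr1:108593960-108594187). The last of the 3, chr1:108555137-108555346, was shared, with 17 Tet2+/+ fragments. Peaks between the regions, such as the own peak with 18 Tet2-/- and 21 Tet2+/+ fragments, were in neither direct list. In both windows called and uncalled peaks were thus interleaved.

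**Figure D4:**
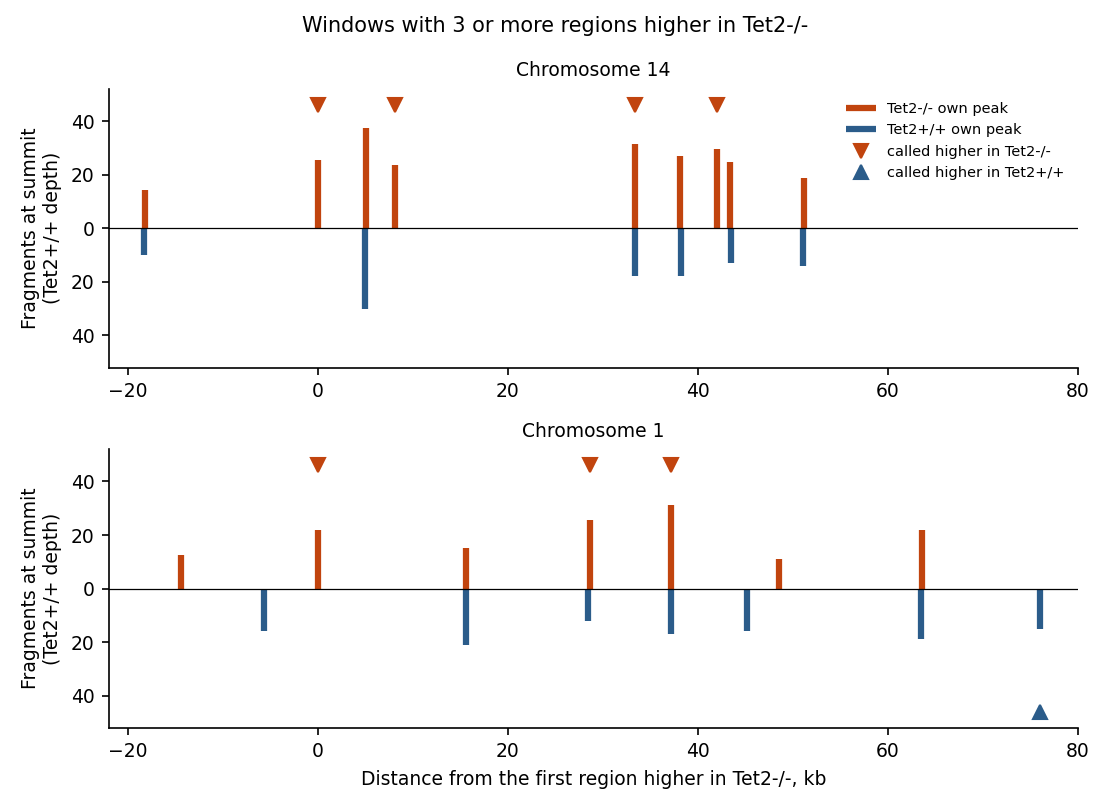
Own peaks in the 2 windows with 3 or more regions higher in Tet2-/-, by distance from the first of these regions (horizontal, kb). Bars give fragments at the summit at Tet2+/+ depth, upward for Tet2-/- and downward for Tet2+/+, and triangles mark regions called higher in one library. The chromosome 14 window holds 4 called regions among 9 Tet2-/- own peaks, and the chromosome 1 window 3 among 7. The second of the 4 had a −log10 q of only 0.641.

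Every autosome carried such regions, from 12 on chromosome 17 to 53 on chromosome 1. The share of Tet2-/- own peaks called higher ran from 1.75% on chromosome 17 (0.908 to 3.04) to 4.35% on chromosome 14 (2.94 to 6.19), with 4.30% on chromosome 1 (3.23 to 5.60). Chromosomes 1 and 14 were the 2 of 19 whose exact interval lay clear of the pooled 2.8%. Their median coverage ratios over all own-peak pairs, 0.890 and 0.895, were within the range of the other autosomes (0.848 to 0.909). The regions higher in Tet2+/+ outnumbered those described here by 2.79 to 1 on chromosome 14 and by 11.6 to 1 on chromosome 17.

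**Figure D5:**
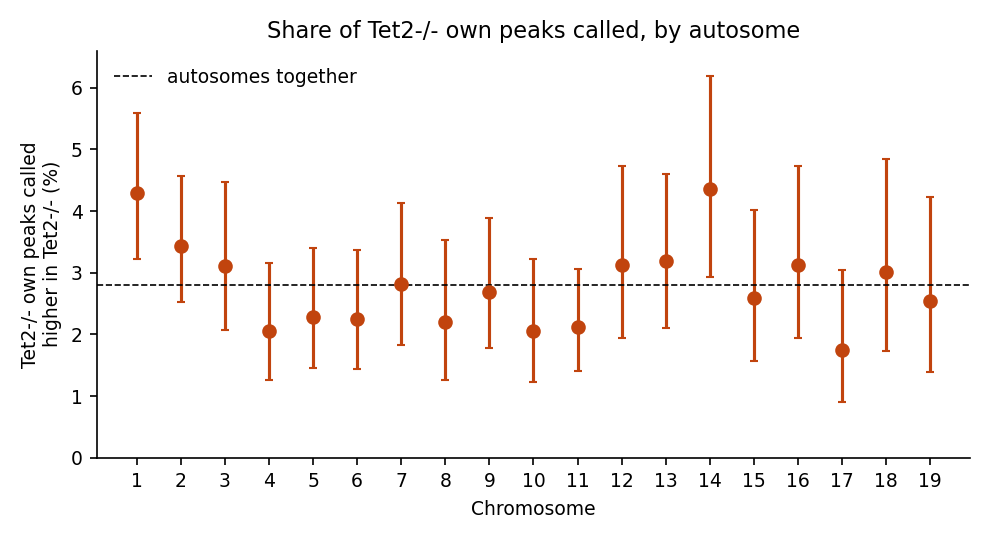
Share of Tet2-/- own peaks called higher in Tet2-/- (vertical, %) on each autosome (horizontal), with 95% exact intervals for counting error. The dashed line is the share over the autosomes together, 2.8%, and the intervals of chromosomes 1 and 14 lie above it. The intervals make no allowance for the number of chromosomes.

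Repeated or amplified DNA can raise coverage in both libraries, and no mask for it was used here. A high local expectation marks such places as well as dense 5hmC. In the Tet2-/- own list it was at least 5 at 38 of the 463 peaks under these regions (8.21%, 5.87 to 11.1) and at 2.16% of all own peaks, and at least 10 at 2 and at 53. These 2 were chr11:3093791-3094013, with 98 Tet2-/- and 64 Tet2+/+ fragments (ratio 1.30, 0.938 to 1.81) over local expectations of 40.2 and 26.9, and chr1:40494599-40494842, with 39 Tet2-/- fragments over 14.2. The fragments of a peak are counted in its local expectation, and these regions were chosen for more of them in Tet2-/-. The larger share at these regions is therefore partly built in, and the part of repeats in these calls was not tested.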

How the data were processed

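The members of this set and the lists used were chosen with earlier results of these data known. Bowtie2 and MACS2 with the mm9 build are named per the submitters' processing notes, their versions and settings being not given in the sources used here. Peaks were called per library, and 4 lists of them were deposited by the authors, whose peak names give the library alone or the other library as control. Each deposited peak has a fold over the expected pileup (a ratio), a −log10 p and −log10 q, and a score, which is 10 times the −log10 p rounded down except for 1 peak in each own list. These are the authors' values and serve only to describe or rank within a list.

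Fragments and expected pileup were solved from the deposited fold and p by the MACS2 formulas, a whole number matching the p to 0.001 in 100% of peaks of each list, and the calculation was tested on simulated data. A coverage ratio divides depth-scaled own-peak fragments at the 2 own summits. Overlap means at least 1 bp, and distances run from the summit to the nearest edge. Shares have 95% Clopper-Pearson intervals, fragments have exact Poisson intervals, coverage ratios have exact binomial ones, and a count of 0 allows 3 counts. Order-statistic intervals of medians reflect spread between regions of a single library pair and served only to sort the alternative settings. Amplified fragments and neighbouring peaks are not independent, so the other intervals cover counting error only.

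Regions named were, by rule, the 8 of highest −log10 q in each main class, those outside both own lists, the 5 farthest from a Tet2+/+ peak, the 5 nearest to a region higher in Tet2+/+, windows of 100 kb with 3 or more, the 3 of lowest −log10 p and the 5 widest. Gene lists, gene features and sequence content need mm9 annotation and were not analysed here. Values were computed with scipy 1.17.1, pandas 2.3.3 and numpy 2.4.6 in Python 3.11.15.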

Additional observations from a re-analysis of the deposited data

How the results depend on the processing

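Under 17 alternative settings the 9 main results gave 64 new values. Of these, 30 were within the interval of the main value and 34 were outside it. For medians this was the order-statistic interval, and for counts a range within 1.5 times. The limits on q and fold shorten the list by construction. At −log10 q of at least 2 the share of Tet2-/- own peaks called was 2.49%. A −log10 q limit of 5 kept 191 regions, 49.2% knockout-only, 50.8% shared and 0 in neither own list, a median of 117 bp from a Tet2+/+ peak, with a coverage ratio of 1.95, 1.15% of own peaks called and 6 windows with 2 or more. A limit of 10 kept 31 regions, 48.4% knockout-only, 51.6% shared and 0 in neither, at 117 bp, with a ratio of 2.28, 0.187% called and 0 such windows. The 2 classes were thus near equal at both limits, with 94 knockout-only and 97 shared regions at the first and 15 and 16 at the second. A deposited fold of at least 5 left 82 regions, 91.5% knockout-only, 8.54% shared and 0 in neither, with 0.496% called. With reciprocal overlap of 50%, 57.2% were knockout-only, 14.2% shared and 18.1% in neither, with 2.01% called. The rest met that limit for Tet2+/+ alone. With peaks within 1 kb as overlapping, 53.1% were knockout-only and 46.5% shared. Own peaks of −log10 q of at least 5 alone gave 65.4%, 32.5% and 2.15% for knockout-only, shared and neither. A region higher in Tet2+/+ lay within 50 kb in 28.2% and within 100 kb in 41.3%. The coverage ratio at shared regions was 2.16 without depth scaling, and 2.10 with the general shift between the libraries removed, a setting chosen after seeing the data. Beyond the rules themselves, the cause was not tested. Alternatives on gene features and sequence were not run, since they need mm9 annotation. No paired analysis was possible because the design has a single library for either genotype. A single region has limited depth, with a median of 30 Tet2-/- fragments.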

Other observations

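The longest run of Tet2-/- own peaks without a region called higher in Tet2-/-, chosen after its values were seen, was on chromosome 10 between summits at 57847764 and 116506277, a span of 58.7 Mb. It held 433 Tet2-/- own peaks and 93 regions higher in Tet2+/+, and the absence of a call is how it was picked. The coverage ratio of its 295 own-peak pairs had a median of 0.848, against 0.905 on the rest of chromosome 10. The next run, on chromosome 3, held 243 own peaks in 41.2 Mb, and its medians went the other way, 0.889 against 0.848.

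The most heavily covered Tet2-/- own peaks with neither a Tet2+/+ partner nor a call lay close together. Of the 5 highest, 4 were in a single stretch of chromosome 11 and had local expectations of 29.4 to 39.3: chr11:3077127-3077328 had 76 fragments, chr11:3076368-3076633 and chr11:3096338-3096734 had 75 each, and chr11:3098131-3098468 had 65. The shared region chr11:3093791-3094013 lies among them. The fifth, chr1:40496473-40496867, had 59 fragments over 14.4 and lies beside the called regions at chr1:40491356-40491564 and chr1:40494599-40494842.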
